A study of Homo sapiens with 9 samples.

Results

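The non-collagen proteins of the mesenchymal extracellular matrix were followed across all libraries through 10 genes: FN1, TNC, SPARC, THBS1, THBS2, POSTN, TGFBI, FBN1, FBN2 and VCAN. They were taken by symbol from a count table of 58676 genes, each symbol matched 1 row, and all 10 passed the filter on low counts that left 15975 genes for testing. The RNA came from OVCA433, an established line of human ovarian serous adenocarcinoma cells, grown with serum. Each group had 3 libraries, marked A, B and C: the shRNA Control vector, shRNA#1-MPZL3 and shRNA#3-MPZL3, the last 2 being hairpins against MPZL3, an immunoglobulin-domain membrane protein predicted to act in cell adhesion. All 9 libraries thus came from lentivirally transduced cells of 1 line, and the study describes the control of this experiment as an empty vector, so the controls may express no hairpin. The study calls the libraries of a group biological replicates. Whether they came from separate transductions is not stated, so the p-values measure the spread between these libraries.

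Fibronectin, the product of FN1, is assembled by cells into fibrils to which integrins, collagens and other matrix proteins attach. Fibrillins (FBN1, FBN2) form microfibrils, which carry elastin and hold latent TGF-beta binding proteins. Versican (VCAN) is a large proteoglycan that binds hyaluronan and gives the matrix bulk and hydration. Tenascin-C, the thrombospondins, SPARC, periostin (POSTN) and TGFBI are matricellular or adhesive proteins, secreted to tune the contact between cells and matrix. Many of these genes are widely used as markers of mesenchymal cells and of epithelial to mesenchymal transition (EMT), and in ovarian tumours they are made by stromal fibroblasts as well as by tumour cells.

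The promoters of 6 members are shown first, as the 250 bases before the RefSeq start site (GRCh38.p14), each read 5′ to 3′ on the strand of its gene. Capitals mark matches to TATAA, to the cyclic AMP response element TGACGTCA, to the AP-1 letters TGANTCA or to the SMAD-binding letters CAGAC, on either strand. FN1, TNC, THBS2, POSTN and VCAN are shown because they share TATAA just before the start site, and FBN1 because its change was among the largest and its window holds no match. The windows of SPARC, TGFBI and FBN2, not shown, hold no match either.
FN1: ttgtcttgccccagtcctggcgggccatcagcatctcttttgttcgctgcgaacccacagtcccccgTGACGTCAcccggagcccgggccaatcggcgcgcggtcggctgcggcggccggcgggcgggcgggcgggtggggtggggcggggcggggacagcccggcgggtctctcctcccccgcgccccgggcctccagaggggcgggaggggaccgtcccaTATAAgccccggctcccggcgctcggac
TNC: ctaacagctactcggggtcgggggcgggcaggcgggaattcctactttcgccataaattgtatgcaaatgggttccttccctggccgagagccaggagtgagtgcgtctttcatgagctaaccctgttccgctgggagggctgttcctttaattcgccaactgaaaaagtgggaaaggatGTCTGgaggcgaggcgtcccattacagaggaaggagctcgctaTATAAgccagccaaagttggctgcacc
THBS2: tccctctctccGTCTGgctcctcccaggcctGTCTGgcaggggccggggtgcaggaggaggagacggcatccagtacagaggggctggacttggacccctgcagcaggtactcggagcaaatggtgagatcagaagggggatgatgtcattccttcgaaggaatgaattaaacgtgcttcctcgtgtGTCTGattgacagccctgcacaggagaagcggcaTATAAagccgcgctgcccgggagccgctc
POSTN: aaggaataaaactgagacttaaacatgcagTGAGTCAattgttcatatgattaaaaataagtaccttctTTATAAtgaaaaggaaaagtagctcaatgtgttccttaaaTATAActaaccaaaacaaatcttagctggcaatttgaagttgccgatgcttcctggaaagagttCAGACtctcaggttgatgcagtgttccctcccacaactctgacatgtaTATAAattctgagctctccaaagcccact
VCAN: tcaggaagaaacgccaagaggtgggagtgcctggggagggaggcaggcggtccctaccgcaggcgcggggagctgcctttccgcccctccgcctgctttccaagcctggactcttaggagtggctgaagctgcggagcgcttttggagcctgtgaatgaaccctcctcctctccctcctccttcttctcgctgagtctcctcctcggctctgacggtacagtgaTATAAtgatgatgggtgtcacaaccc
FBN1: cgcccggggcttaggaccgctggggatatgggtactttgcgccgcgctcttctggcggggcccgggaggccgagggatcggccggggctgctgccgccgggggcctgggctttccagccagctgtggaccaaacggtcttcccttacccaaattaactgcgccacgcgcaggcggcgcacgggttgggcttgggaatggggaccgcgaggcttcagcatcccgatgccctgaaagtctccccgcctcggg
These windows lie at chr2:215436069-215436318 (FN1, minus strand), chr9:115118158-115118407 (TNC, minus), chr6:169253847-169254096 (THBS2, minus), chr13:37598769-37599018 (POSTN, minus), chr5:83471494-83471743 (VCAN, plus) and chr15:48644971-48645220 (FBN1, minus).

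TATAA was present in the windows of 5 of 10 members, against 18.9% of 35116 RefSeq promoters of the same length searched on both strands. Counted back from the start site, its first base lay at -28 in FN1, -27 in TNC, -29 in THBS2, -29 in POSTN and -26 in VCAN, each on the strand of the gene. Between -35 and -20 on the gene's strand, 3.7% of all promoters held these letters. The cyclic AMP response element occurred in 1 member, FN1 at -183, and in 1.65% of promoters, and the AP-1 letters occurred in 1 member, POSTN at -220, and in 6.57%. CAGAC was found in TNC, THBS1, THBS2 and POSTN, 4 of 10 members against 38.0% of promoters. CACCTG, an E-box bound by EMT repressors and activators, was found in 0 members and in 17.5% of promoters. The POSTN window had the lowest GC content, 36.4%, and the FN1 window the highest, 76.4%, against a median of 58.0% over all promoters. The motifs and the window were chosen after the sequences were seen, and a match is a description of the letters alone.

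The 9 libraries held 16850854 to 23890191 counts. Levels are given as CPM, the counts brought to 1 library size by trimmed-mean (TMM) factors, and a gene was called changed at an edgeR adjusted p-value under 0.05 with at least a 2-fold difference. MPZL3 was at 15.6 to 21.9 CPM in control and at 0.988 to 1.98 CPM in the 6 knockdown libraries, so the labels held for the targeted gene. PAX8, which marks the serous lineage, was present in every library, and WT1, another such marker, had 0 counts in all 9. Of 6 tested epithelial marker genes 4 fell and 1, PAX8, rose, and their summed level was 9964 to 12050 CPM in control, 5219 to 6668 with hairpin #1 and 5156 to 5781 with hairpin #3, keratin KRT8 being the highest. MUC16, which encodes CA125, went from 2.09 to 4.11 CPM in control to 0 counts in all 6 knockdown libraries. It passed the filter on low counts through the control libraries alone, so its call is a description.

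With both hairpins taken as 1 knockdown arm, 8 of 10 members rose and 0 fell, against 7.26% of all tested genes called higher and 7.4% called lower. The members that rose were FBN1, VCAN, TNC, FN1, THBS2, SPARC, FBN2 and POSTN, and the 2 that did not pass were THBS1 and TGFBI. The median log2 fold change of the 10 was 2.08, against 0.00454 over all tested genes. The members were chosen with earlier results of these data known. Here and below, setting them beside all tested genes is therefore a description. In 7 members all 6 knockdown libraries lay above all 3 control libraries, an arrangement met by 15.5% of tested genes. The other 3 were POSTN, TGFBI and THBS1. The filter asked for 0.492 CPM in 3 libraries, and 8 members met that level in all control libraries, of which 6 rose. THBS2 met it in 1 control library and in all knockdown libraries, and POSTN in the hairpin #3 libraries alone, so these 2 were tested through the groups in which they were high and their p-values are a description. Since the RNA is from bulk cultures, more cells of a type and more RNA per cell cannot be told apart.

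**Figure D1:**
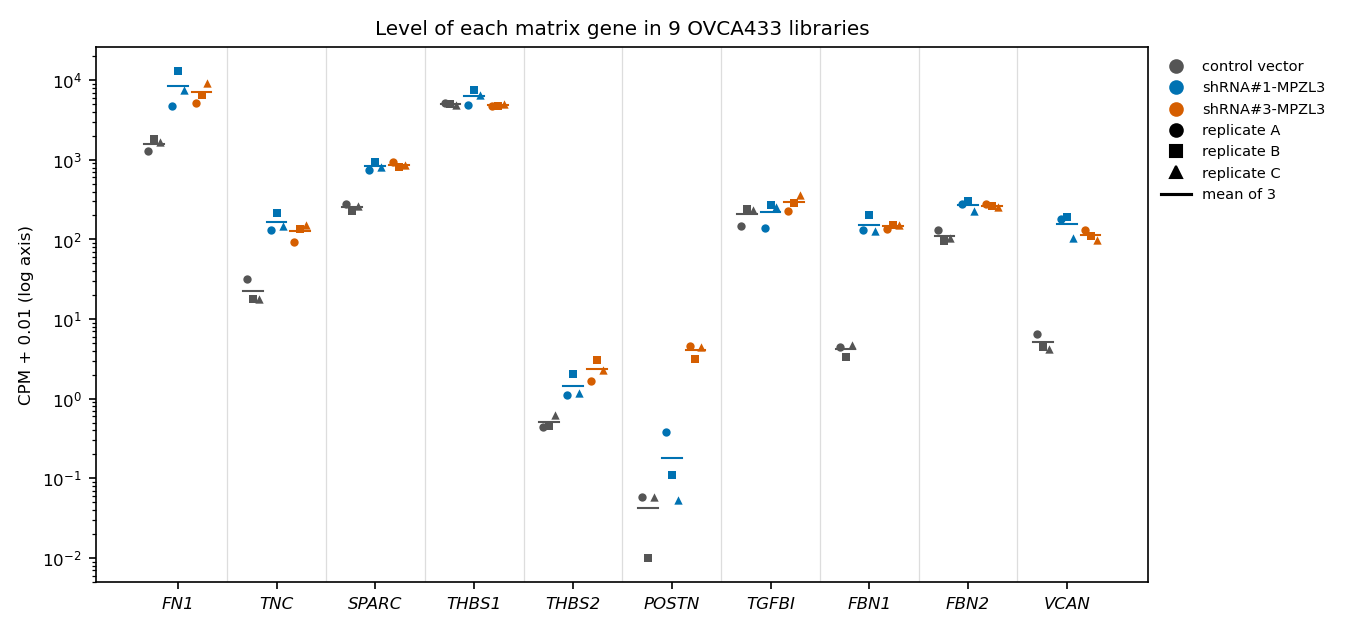
Level of each of the 10 genes as CPM + 0.01 on a log axis, by library (circle A, square B, triangle C), with a line at the mean of 3 libraries per group. FBN1 and VCAN rose from 3.33 to 6.59 CPM in control to 99.5 to 202 CPM in knockdown, while the THBS1 and TGFBI groups overlapped and POSTN stood high with hairpin #3.

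Taken 1 hairpin at a time, hairpin #1 raised 7 members (7.76% of tested genes were called higher) and hairpin #3 raised 8 (7.46%). The 7 members raised by each hairpin were FN1, TNC, SPARC, THBS2, FBN1, FBN2 and VCAN, against 5.58% of tested genes called higher with each, and both comparisons share the 3 control libraries. POSTN was the member called with hairpin #3 alone. It met the level of the filter in that group alone, and THBS2 met it in 1 control library, so the calls of these genes are a description. FN1, TNC, SPARC, FBN1, FBN2 and VCAN met it in all control libraries. The direct test of hairpin #3 against hairpin #1 called 1 member, POSTN, where 2.22% of tested genes were called higher and 3.93% in either direction. For the other 9 members the hairpin groups overlapped. Over all tested genes, 14.5% had all hairpin #3 libraries above hairpin #1 and 13.2% had all below. In those 9 members the log2 difference between hairpins ranged from -0.47 for VCAN to 0.70 for THBS2.

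**Figure D2:**
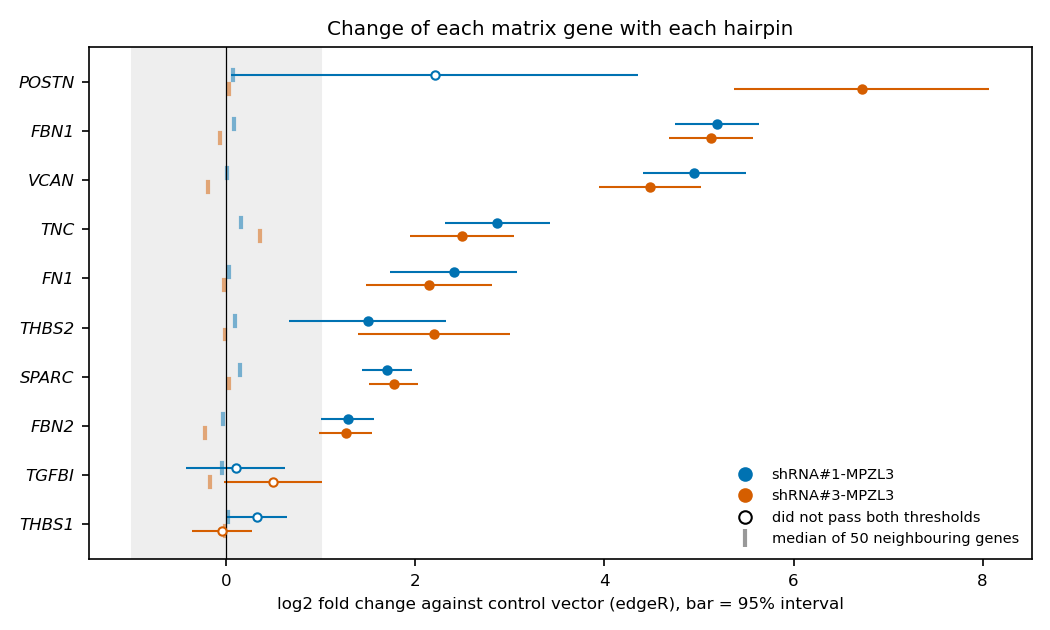
Log2 fold change of each gene with hairpin #1 and hairpin #3 against control, with 95% intervals. Open points mark values that did not pass both thresholds, and grey marks less than 2-fold. Short bars give the median of the 50 nearest tested genes on the chromosome with a mean of at least 10 CPM. POSTN stood furthest apart, at 2.20 and 6.72. The other 9 genes differed between hairpins by -0.47 (VCAN) to 0.70 (THBS2) on the log2 scale, and none of these differences passed.

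FN1 (ENSG00000115414, chromosome 2, 215360440 to 215436172 on hg38) encodes fibronectin. It was at 1297, 1807 and 1676 CPM in control libraries A, B and C. With hairpin #1 it was at 4789, 12910 and 7627 CPM, and with hairpin #3 at 5214, 6595 and 9331 CPM. Every knockdown library was above every control library, and replicate A was the lowest of each of the 3 groups. The means were 1593 ± 265, 8442 ± 4123 and 7047 ± 2095 CPM (SD, n = 3), which gave 2.41 on the log2 scale (SE 0.311, edgeR adjusted p = 3.97e-05) with hairpin #1 and 2.14 (SE 0.308, edgeR adjusted p = 0.000109) with hairpin #3. FN1 alone took 0.132% to 0.182% of the counts in control and 0.479% to 1.28% in knockdown. Ranked by counts it moved from positions 32 to 49 in control to positions 1 to 7, and in hairpin #1 replicate B it was the most abundant gene. Against the control library of the same letter the fold ranged from 3.65 to 7.14. The hairpin #1 libraries spread widely, and the log2 difference between hairpins was -0.26 (95% interval -0.90 to 0.38, edgeR adjusted p = 0.654).

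TNC (ENSG00000041982, chromosome 9, 115019578 to 115118257), which encodes tenascin-C, a hexameric protein that modulates adhesion to fibronectin, started from a far lower level. It was at 31.5, 17.7 and 18.0 CPM in control, 131, 213 and 147 CPM with hairpin #1 and 93.0, 134 and 152 CPM with hairpin #3. All knockdown libraries were above control and the hairpins overlapped, although replicate A was the highest of the control libraries and the lowest with each hairpin. On the log2 scale its change was 2.87 (SE 0.257, edgeR adjusted p = 1.34e-06) with hairpin #1 and 2.50 (SE 0.254, edgeR adjusted p = 4.96e-06) with hairpin #3, and the difference between hairpins was -0.37 (95% interval -0.88 to 0.14, edgeR adjusted p = 0.374). By letter, the fold over control was 4.14 and 2.95 in replicate A, 12.0 and 7.58 in B, and 8.15 and 8.44 in C. The median log2 fold change of the 50 nearest tested genes on chromosome 9 with a mean of at least 10 CPM was 0.15 with hairpin #1 and 0.35 with hairpin #3.

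**Figure D3:**
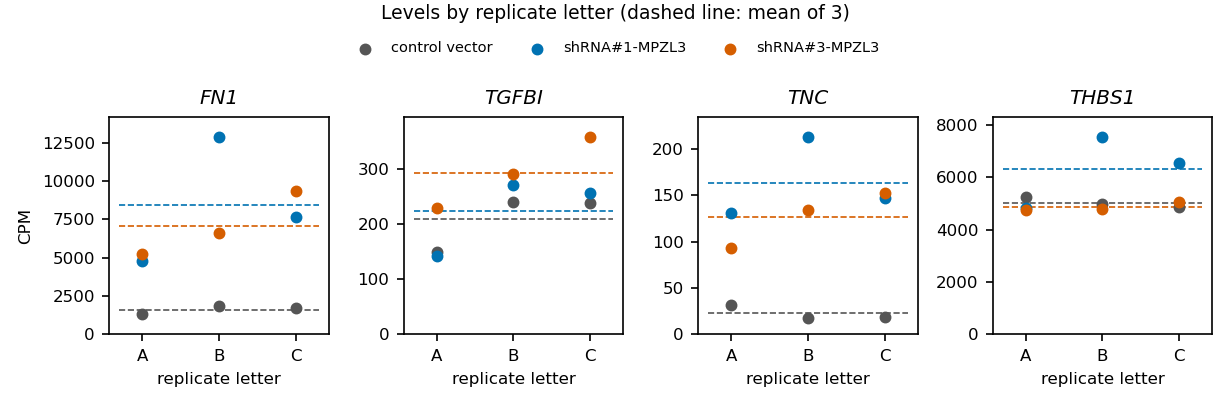
CPM of FN1, TGFBI, TNC and THBS1 by replicate letter, each axis starting at 0, with a dashed line at the mean of 3 libraries. Replicate A was the lowest library of every group for FN1 and TGFBI, and for TNC it was the highest control library and the lowest with each hairpin.

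Of the matricellular genes, SPARC (ENSG00000113140, chromosome 5, 151661096 to 151687165) encodes a protein that binds collagen and takes part in its deposition. It was at 278, 229 and 260 CPM in control, 741, 941 and 806 CPM with hairpin #1 and 947, 810 and 858 CPM with hairpin #3. The knockdown libraries lay well above control and the hairpins overlapped. Its pooled log2 fold change was 1.73 (SE 0.113, edgeR adjusted p = 3.11e-07), with 1.70 for hairpin #1, 1.77 for hairpin #3 and a difference of 0.07 (95% interval -0.18 to 0.33, edgeR adjusted p = 0.773).

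The thrombospondins are secreted glycoproteins that bind CD36, CD47 and integrins, and both form trimers. THBS1 (ENSG00000137801, chromosome 15, 39581079 to 39599466), which also activates latent TGF-beta, was already among the most abundant messages of control cells, ranked 4 to 6 by counts in every library. It was at 5234, 4995 and 4863 CPM in control, 4826, 7564 and 6539 CPM with hairpin #1 and 4749, 4804 and 5060 CPM with hairpin #3. Hairpin #1 replicates B and C stood above all other libraries, and replicate A lay below control. The log2 fold change did not pass with hairpin #1 (0.33, 95% interval 0.01 to 0.64, edgeR adjusted p = 0.0974) or with hairpin #3 (-0.05, 95% interval -0.36 to 0.27, edgeR adjusted p = 0.843). In a fit restricted to replicates B and C, chosen after the data were seen, the value with hairpin #1 was 0.53 (edgeR adjusted p = 0.0015, range over alternatives 0.0015 to 1), still under 2-fold.

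THBS2 (ENSG00000186340, chromosome 6, 169215780 to 169254044) was at the other end of the range of levels, with 9, 9 and 13 counts in control, 24, 40 and 27 with hairpin #1 and 28, 56 and 49 with hairpin #3. All knockdown libraries were above all control libraries. On the log2 scale its change was 1.496 (SE 0.384, edgeR adjusted p = 0.00736) with hairpin #1 and 2.20 (SE 0.372, edgeR adjusted p = 0.000423) with hairpin #3, and the difference between hairpins, 0.70, had a 95% interval of 0.00 to 1.41 (edgeR adjusted p = 0.200). THBS2 overlaps the antisense gene XXyac-YX65C7_A.2, which held 111 counts over the 9 libraries against 255 for THBS2. The libraries carried no strand information, so reads of the 2 genes in the shared stretch cannot be told apart and the THBS2 values are uncertain. Per length, THBS1 exceeded THBS2 by 5468- to 8388-fold in control, 2596- to 3946-fold with hairpin #1 and 1092- to 2013-fold with hairpin #3.

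Periostin, encoded by POSTN (ENSG00000133110, chromosome 13, 37562583 to 37598844), is an integrin ligand typical of activated fibroblasts, and it was the member on which the hairpins parted. It had 1, 0 and 1 counts in the control libraries, 8, 2 and 1 with hairpin #1 and 77, 58 and 97 with hairpin #3, which corresponds to 3.18 to 4.53 CPM in the last group. The gene passed the filter on low counts through hairpin #3 alone. The hairpin #3 libraries stood clear of all others, while hairpin #1 replicate C lay within control. Against control, the ratio of summed counts per depth was 126 with hairpin #3 (exact 95% counting interval 34.4 to 1043) and 5.27 with hairpin #1 (1.15 to 48.9). Between hairpins it was 23.8 (13.1 to 48.4), and these intervals cover counting error only.

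The fitted log2 difference of POSTN between hairpin #3 and hairpin #1 was 4.52 (SE 0.48, 95% interval 3.48 to 5.56, edgeR adjusted p = 6e-05), higher in 3 of 3 libraries, and 5.66 in the fit without the A replicates. Leaving out 1 library at a time it ranged from 4.03 to 5.73, the highest without hairpin #1 replicate A. With hairpin #3 alone the change from control passed (log2 fold change 6.72, SE 0.624, edgeR adjusted p = 2.02e-06), and with hairpin #1 alone it did not (2.20, 95% interval 0.05 to 4.35, edgeR adjusted p = 0.100), except when hairpin #1 replicate C was left out (2.68, edgeR adjusted p = 0.0415, range over alternatives 0.0415 to 0.539). The pooled call (log2 fold change 5.77, SE 1.77, edgeR adjusted p = 0.0257) was lost whichever control library was left out, the edgeR adjusted p being 0.0748 (A), 0.0949 (B) and 0.0818 (C). It was also lost with the replicate letter as a block, at edgeR adjusted p = 0.0513 (range over alternatives 0.000391 to 0.099), so the increase of POSTN rests on hairpin #3.

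TGFBI (ENSG00000120708, chromosome 5, 136028895 to 136063818) encodes a TGF-beta-induced adhesion protein related in sequence to periostin. It was at 149, 239 and 237 CPM in control, 141, 271 and 257 CPM with hairpin #1 and 230, 290 and 358 CPM with hairpin #3. As for FN1, replicate A was the lowest of each group, and the groups overlapped. Neither log2 fold change passed, at 0.10 with hairpin #1 (95% interval -0.42 to 0.62, edgeR adjusted p = 0.787) and 0.49 with hairpin #3 (95% interval -0.03 to 1.01, edgeR adjusted p = 0.139). With hairpin #3 the adjusted p fell below 0.05 in some alternatives, with log2 fold changes still under 1: 0.51 with the replicate letter as a block (edgeR adjusted p = 0.000364) and 0.46 in replicates B and C alone (edgeR adjusted p = 0.00274, range over alternatives 0.000225 to 1). The interval with hairpin #3 reaches 2-fold, so a rise of that size was not resolved with 3 libraries.

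Among the microfibril genes, FBN1 (ENSG00000166147, chromosome 15, 48408306 to 48645849), the fibrillin of adult connective tissue, was at 4.46, 3.33 and 4.78 CPM in control. With hairpin #1 it was at 130, 202 and 128 CPM, and with hairpin #3 at 136, 153 and 152 CPM. The lowest knockdown library was far above the highest control library, and the hairpins overlapped. The log2 fold change was 5.19 (SE 0.206, edgeR adjusted p = 6.09e-10) with hairpin #1 and 5.13 (SE 0.205, edgeR adjusted p = 8.31e-10) with hairpin #3, means 36.6 and 35.0 times control. Between hairpins the difference was -0.07 (95% interval -0.41 to 0.28, edgeR adjusted p = 0.861).

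FBN2 (ENSG00000138829, chromosome 5, 128257909 to 128659185), the fibrillin prominent in development, was the more abundant of the pair in control and changed less. It was at 132, 96.9 and 104 CPM in control, 278, 302 and 229 CPM with hairpin #1 and 276, 266 and 256 CPM with hairpin #3. No knockdown library reached down to control, and the pooled log2 fold change was 1.27 (SE 0.122, edgeR adjusted p = 7.97e-06), with 1.28 and 1.26 for the hairpins and a difference of -0.02 (95% interval -0.30 to 0.26, edgeR adjusted p = 0.952). The lower end of the pooled interval was 1.01, just at the 2-fold threshold. Per length, FBN2 exceeded FBN1 by 26.5- to 36.1-fold in control, by 1.82- to 2.60-fold with hairpin #1 and by 2.05- to 2.48-fold with hairpin #3. FBN2 thus stayed the higher of the fibrillins in every library while the gap to FBN1 narrowed.

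VCAN (ENSG00000038427, chromosome 5, 83471465 to 83582303) encodes versican. It was at 6.59, 4.43 and 4.25 CPM in control, 179, 190 and 103 CPM with hairpin #1 and 132, 110 and 99.5 CPM with hairpin #3. All knockdown libraries were well above control, and replicate C was the lowest of each group. The log2 fold change was 4.95 (SE 0.253, edgeR adjusted p = 5.7e-09) with hairpin #1 and 4.48 (SE 0.249, edgeR adjusted p = 1.42e-08) with hairpin #3, means 30.96 and 22.4 times control. The difference between hairpins was -0.47 (95% interval -0.91 to -0.03), which did not pass after adjustment (edgeR adjusted p = 0.170).

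Levels were compared between the genes as RPKM, the CPM divided by the length of the gene in kilobases. The order of group means in control was THBS1 at 549, FN1 at 92.0, SPARC at 52.9, TGFBI at 26.7, FBN2 at 8.41, TNC at 2.33, VCAN at 0.343, FBN1 at 0.261, THBS2 at 0.0784 and POSTN at 0.00587 RPKM. Of neighbours in that order, VCAN and FBN1 overlapped between libraries. With hairpin #1 the order of the first 3 was kept, at 689 RPKM for THBS1, 488 for FN1 and 172 for SPARC, and THBS1 and FN1 now overlapped. TGFBI, FBN2 and TNC followed at 28.5, 20.5 and 16.98 RPKM, with overlapping libraries, and VCAN and FBN1 at 10.6 and 9.56 RPKM overlapped too. With hairpin #3 the means were 532 RPKM for THBS1, 407 for FN1, 180 for SPARC, 37.5 for TGFBI, 20.2 for FBN2, 13.1 for TNC, 9.13 for FBN1 and 7.68 for VCAN, and POSTN (0.743) stood above THBS2 (0.363). In that group THBS1 and FN1 overlapped, as did FBN1 and VCAN, and the libraries of POSTN and THBS2 did not. THBS1 made up 73.5% to 77.5% of the summed RPKM of the 10 genes in control and 40.4% to 51.2% in knockdown, while FN1 went from 10.2% to 14.2% up to 26.9% to 39.8%. Together the 10 genes took 0.704% to 0.745% of the counts in control, 1.12% to 2.24% with hairpin #1 and 1.19% to 1.62% with hairpin #3.

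**Figure D4:**
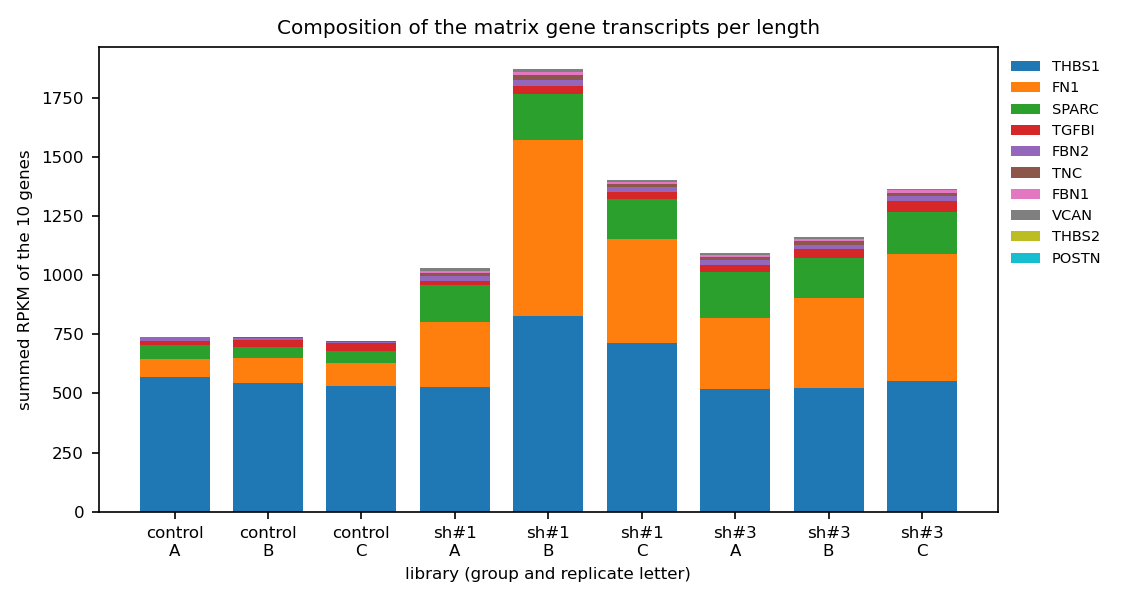
Summed RPKM of the 10 genes in each library, stacked by gene. The sum was 722 to 738 RPKM in control and 1030 to 1872 RPKM in knockdown, with the THBS1 segment at a like height in most libraries and the FN1 and SPARC segments taller in knockdown.

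The members also differed in how closely they moved together over the 9 libraries, given here as a description of log2(CPM + 1), in which the 3 groups set most of the variation. FBN1 had a Pearson r of 0.994 with SPARC and 0.989 with VCAN, and FBN2 an r of 0.989 with VCAN. FN1 and TNC had an r of 0.944. THBS1 was at 0.312 with SPARC and -0.431 with POSTN, and TGFBI at 0.349 with SPARC. Among genes at 10 CPM or more on average, those most like FN1 were the lincRNA gene RP11-631N16.2 (r = 0.999) and INHBA (0.987), and those most like TNC were TBC1D8 (0.994) and TRO (0.991). For SPARC they were F2RL2 (0.996) and BICC1 (0.996), for FBN1 LIX1L (0.998) and PRKCA (0.998), for FBN2 PEAK1 (0.994) and DCAF7 (0.992), and for VCAN FGF18 (0.998) and UBFD1 (0.997). POSTN, high with hairpin #3, was most like MAPKAP1 (0.985) and KDM2B (0.976), and THBS2 most like GPN3 (0.979) and KIZ (0.977). THBS1 was most like PRKAB2 (0.956) and SLC22A15 (0.939), and TGFBI most like GGT7 (0.971) and LAMB2 (0.966).

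The genes that receive, anchor, cut or induce these proteins were examined in 6 lists of 85 genes, of which 65 were tested. In the pooled comparison 21 of these rose and 8 fell, where 14.7% of all tested genes were called in either direction. The lists too were chosen with earlier results of these data known, so their counts beside this share are a description. Of those that rose, MFAP5, HAS2, TNFAIP6, TNXB, SPOCK3 and ADAMTS4 met the level of the filter in at most 1 control library and were tested through knockdown libraries. For HAS2 these were the hairpin #3 libraries alone. The p-values of genes tested this way are a description. Of 12 tested receptors, 1 rose and 2 fell (median log2 fold change 0.14). ITGA5, the alpha chain of the main fibronectin receptor, rose from 70.5 to 74.6 CPM in control to 141 to 207 CPM in knockdown (log2 fold change 1.25, SE 0.125, edgeR adjusted p = 1.13e-05). ITGB6 fell from 70.8 to 121 CPM to 1.20 to 1.82 CPM (-5.89, SE 0.175, edgeR adjusted p = 6.5e-10), and ITGB8 from 325 to 458 CPM to 85.1 to 192 CPM (-1.55, SE 0.233, edgeR adjusted p = 0.000291). Both encode beta chains of integrins that bind latent TGF-beta, and that of ITGB6 also takes part in binding fibronectin.

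Of 12 tested partners of elastic fibres and microfibrils, 5 rose and 2 fell (median 0.52). MFAP5, a microfibril-associated glycoprotein, rose from 0.0968 to 0.669 CPM in control to 3.31 to 14.5 CPM in knockdown (log2 fold change 4.34, SE 0.595, edgeR adjusted p = 0.000143). Of the latent TGF-beta binding proteins, LTBP1 fell by 3.47 on the log2 scale (SE 0.349, edgeR adjusted p = 1.22e-05) and LTBP4 rose by 2.98 (SE 0.711, edgeR adjusted p = 0.00688). LTBP4 was at 10.5 to 21.6 CPM with hairpin #1 and at 40.1 to 104 CPM with hairpin #3, against 4.46 to 7.79 CPM in control. Named after its values were seen, FBN3, the remaining fibrillin, fell by 2.66 (SE 0.531, edgeR adjusted p = 0.00221) while FBN1 and FBN2 rose. FBN3 went from 14.3 to 15.3 CPM in control to 0.257 to 1.355 CPM with hairpin #1 and 2.53 to 4.93 CPM with hairpin #3. The log2 difference between hairpins was 2.13 (edgeR adjusted p = 0.00277).

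Versican is held to hyaluronan by link proteins, and of 10 tested genes of that system 4 rose and 1 fell (median 0.12, also with TNFAIP6 at its lower bound). HAPLN1, a link protein, fell from 88.0 to 148 CPM in control to 2.72 to 10.6 CPM in knockdown (log2 fold change -4.27, SE 0.306, edgeR adjusted p = 6.79e-07), and HAPLN3, its relative, rose (1.17, SE 0.236, edgeR adjusted p = 0.00242), passing with hairpin #3 (1.47) and not with hairpin #1 (0.79, under 2-fold). The difference of HAPLN3 between hairpins was 0.67 (edgeR adjusted p = 0.0142), under 2-fold and so not called. CEMIP, a hyaluronan-degrading protein, rose by 1.82 (SE 0.414, edgeR adjusted p = 0.00512). TNFAIP6, which transfers heavy chains to hyaluronan, had 0 counts in all control libraries and 0.647 to 4.06 CPM in knockdown, at least 12.0-fold higher against 3 counts in each control library. HAS2, a hyaluronan synthase, went from 5 counts in control to 116 in knockdown, a ratio per depth of 11.8 (exact 95% counting interval 4.91 to 37.0). It stood higher with hairpin #3, at 0.942 to 2.07 CPM, than with hairpin #1, at 0.305 to 0.472 CPM. HAS2 passed the filter through hairpin #3 alone, so the log2 difference between hairpins, 2.08, is a description. The pooled call of HAS2 was lost without control replicate A (edgeR adjusted p = 0.0512, range over alternatives 0.000707 to 0.0704).

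Of 11 tested processing and cross-linking enzymes, 4 rose and 2 fell (median 0.52). ADAMTS5, ADAMTS15 and ADAMTS4, which can all cleave versican, were among those that rose. ADAMTS5 went from 7.27 to 8.38 CPM in control to 84.5 to 206 CPM in knockdown (log2 fold change 3.91, SE 0.327, edgeR adjusted p = 2.47e-06), and ADAMTS15 from 18.2 to 22.6 CPM to 103 to 159 CPM (2.60, SE 0.154, edgeR adjusted p = 1.33e-07). ADAMTS4 had 4 counts in control and 147 in knockdown, a ratio per depth of 18.7 (exact 95% counting interval 7.14 to 69.5). The calls of ADAMTS9 (-1.09) and ADAMTS10 (1.12), named after their values were seen, were each lost when 1 library was left out, for example control replicate A (-1.05, edgeR adjusted p = 0.0807, range over alternatives 0.00113 to 1, and 0.97). ADAMTS9 can cleave versican too. It passed with hairpin #1 (-1.72, edgeR adjusted p = 0.000367) and not with hairpin #3 (-0.64, edgeR adjusted p = 0.0825). The difference between hairpins was 1.07 (edgeR adjusted p = 0.033).

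Of 7 tested paralogues of the members, 4 rose and 1 fell (median 1.20). The SPARC relatives divided: SPOCK3 rose by 3.46 on the log2 scale (SE 0.449, edgeR adjusted p = 9.24e-05), FSTL1 rose by 1.20 (SE 0.151, edgeR adjusted p = 7.19e-05) and SPOCK1 rose by 1.97 (SE 0.549, edgeR adjusted p = 0.0159). SPOCK1 did not pass with hairpin #1 (0.92) and passed with hairpin #3 (2.59), a difference of 1.67 between hairpins (edgeR adjusted p = 0.00182). SPOCK2 fell from 112 to 194 CPM in control to 0.140 to 0.458 CPM with hairpin #1 and 3.96 to 5.88 CPM with hairpin #3 (pooled -5.90, SE 0.651, edgeR adjusted p = 2.56e-05). TNXB, a tenascin, rose by 2.08 (SE 0.608, edgeR adjusted p = 0.0207) at under 1 CPM. The SPOCK1 call was lost without control replicate B or C (edgeR adjusted p = 0.0666 and 0.0652, range over alternatives 0.000237 to 0.161), and that of TNXB without control replicate A or C (0.0773 and 0.0593, range 0.0111 to 0.181). The list held 3 called genes in place of 5 without control replicate C.

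Of the 13 TGF-beta ligands, receptors and usual targets, all tested, 3 rose and 0 fell (median 0.52). These were CTGF (log2 fold change 1.62, SE 0.343, edgeR adjusted p = 0.00326), the co-receptor TGFBR3 (1.18, SE 0.141, edgeR adjusted p = 4.98e-05) and the inhibitory SMAD7 (1.00, SE 0.346, edgeR adjusted p = 0.0435). Named after its values were seen, the ligand gene TGFB1 lay just under the 2-fold threshold (0.991, SE 0.103, edgeR adjusted p = 1.53e-05). TGFB1 was at 107 to 134 CPM in control, 219 to 250 CPM with hairpin #1 and 220 to 269 CPM with hairpin #3. It passed with hairpin #3 (1.00) and not with hairpin #1 (0.98, under 2-fold). SMAD7 passed with hairpin #3 (1.13) and not with hairpin #1 (0.86), with a difference of 0.27 between hairpins (edgeR adjusted p = 0.699). It lay at the edge of both thresholds and its call was lost without 1 library in 6 of 9 cases, while the list held 5 called genes without hairpin #1 replicate A or hairpin #3 replicate A.

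**Figure D5:**
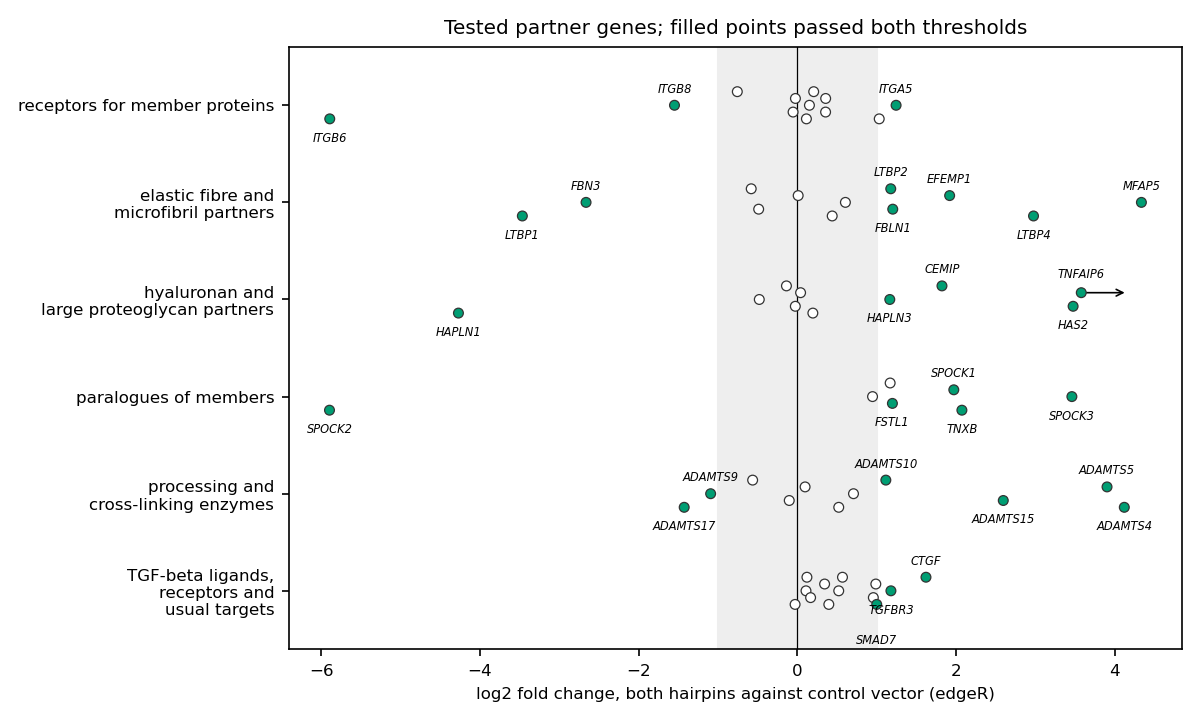
Pooled log2 fold change of the 65 tested partner genes by list, with filled, named points for the 29 that passed both thresholds and grey for less than 2-fold. TNFAIP6, at 0 counts in control, is drawn at the log2 of its lower bound, 3.58, with an arrow, and the lists hold both high genes such as MFAP5 and low ones such as ITGB6 and HAPLN1.

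Of 7 genes that mark fibroblasts, 3 passed the filter on low counts (PDGFRB, LUM and ACTA2) and 4 did not. The summed level of 7 such markers was 4.07 to 5.59 CPM in control, 16.8 to 29.7 with hairpin #1 and 20.8 to 26.8 with hairpin #3. All 3 tested markers rose, where 7.26% of all tested genes were called higher and 7.4% lower, and PDGFRB was the highest. PDGFRB met the level of the filter in 2 control libraries and in all knockdown libraries, so it was tested through knockdown and its call is a description. FAP, not tested, went the other way, with a control mean of 0.55 CPM against 0.352 (hairpin #1) and 0.129 (hairpin #3). DCN, a defining fibroblast gene, had 0 counts in all 9 libraries. The 5 endothelial markers summed to 0.946 to 1.65 CPM in control, 4.86 to 7.25 with hairpin #1 and 6.04 to 8.52 with hairpin #3, with 2 of 4 tested genes higher (CDH5 and KDR). CDH5 met the level of the filter in 0 control libraries and KDR in 1, so both were tested through knockdown and their calls are a description. The 5 mesothelial markers summed to 124 to 159, 94.1 to 110 and 155 to 198 CPM, with 1 of 3 tested genes lower (UPK3B), MSLN highest and ITLN1 at 0 to 1 counts. The 5 leukocyte markers summed to at most 0.935 CPM in any library, with LYZ at 0 counts. The part of these markers in the rise of the members was not tested.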

How the data were processed

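Poly(A)-selected, non-directional libraries of 9 OVCA433 cultures were sequenced on an Illumina instrument. The deposited table holds raw read counts per gene, with no normalization, that the authors made from reads aligned with HISAT2 (version 2.0.5) and counted with featureCounts (version 1.5.0-p3) on hg38, per the submitters' processing notes. The annotation release used for counting is not given in the sources used here. Each column was tied to its sample by the library name in the labels.

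Genes were filtered with filterByExpr (minimum count 10, minimum total count 15), which left 15975 of 58676 genes and 99.889% of the counts, and scaled with TMM. The tests were glmQLFit and glmQLFTest of edgeR 4.0.16 (R 4.3.3), with p-values adjusted by Benjamini-Hochberg over 15975 genes. Calls needed an adjusted p under 0.05 and a log2 fold change of 1 or more in size. Following the study, both hairpins formed 1 arm of 6 libraries in the pooled comparison, and each hairpin was also tested in a model of 3 groups fitted to all 9 libraries. The biological coefficient of variation was 18.17% and 13.06% in these models. RPKM were CPM per kilobase of the gene length in the table. The fit was tested on simulated data. No 2 libraries agreed within sampling noise, so none was counted as a duplicate.

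The members and the gene lists were chosen with earlier results of these data known. All 10 members were named, and of each partner list the genes called in the pooled comparison where they numbered 5 or fewer, otherwise the 3 with the largest change. For pattern likeness, the 2 genes with the highest Pearson correlation over 9 libraries were taken. Deviations from group means, over 9693 genes, correlated between same-lettered control and hairpin #3 libraries at 0.638 (A), 0.345 (B) and 0.549 (C). Between the hairpins the values were 0.684, 0.12 and 0.557, and between control and hairpin #1 they were 0.624, 0.064 and 0.46. Only the B libraries of control and hairpin #1 fell under a limit of 0.1. The A libraries and the C libraries thus shared deviations in every pair of groups, and the B libraries mainly between control and hairpin #3. The main fits did not use the letter. Alternatives were other filters, DESeq2 1.42.0 size factors and Wald test, library totals, a block for the letter, single left-out libraries, other thresholds, other models and subtraction of the median of 50 neighbouring genes. A fit without the A libraries was chosen after seeing the data. Promoter sequences are those of RefSeq on GRCh38.p14, matched by symbol for 10 of 10 members. PCR reads without molecular identifiers are not independent molecules, so counting intervals cover counting error only.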

Additional observations from a re-analysis of the deposited data

Results flagged for a closer look

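POSTN was singled out because a direct test of the hairpins against each other separated them. Its log2 difference between hairpin #3 and hairpin #1 was 4.52 (SE 0.48, edgeR adjusted p = 6e-05), with 77, 58 and 97 counts against 8, 2 and 1, higher in 3 of 3 libraries. POSTN passed the filter on low counts through the hairpin #3 libraries alone, the group in which it was high, so this value and its p are a description and not a test in its support. The median log2 difference of the 50 nearest tested genes on chromosome 13 with a mean of at least 10 CPM was -0.08. No explanation for the difference was tested.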

How the results depend on the processing

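Of the members' fold changes under the alternatives, 813 kept their direction and their side of the thresholds, 12 lost a call, 1 gained one, 11 changed sign and 2 moved by more than their error. The direction changes concerned values that were not called. With hairpin #1, TGFBI went to -0.0960, -0.0700 and -0.0192 when control replicate A, hairpin #1 replicate B or C was left out, a range of -0.0960 to 0.34, and THBS1 with hairpin #3 to 0.0127 in replicates B and C alone. Between hairpins, single left-out libraries gave -0.55 to 0.19 for FN1, -0.00835 to 0.18 for SPARC, -0.18 to 0.19 for FBN1 and -0.12 to 0.0711 for FBN2. SPARC was at -0.0647 in replicates B and C alone and FBN2 at 0.000285 with library totals. Subtracting the neighbours' median moved FBN2 from 1.26 to 1.49 with hairpin #3 and from -0.02 to 0.17 between hairpins.

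A 2-fold threshold inside the test left 5 members called in the pooled comparison, without POSTN, THBS2 and FBN2, and in the partner lists 1 receptor, 2 genes of the hyaluronan system, 2 paralogues, 3 enzymes and 0 TGF-beta genes. Without a fold threshold 8 TGF-beta genes were called, and at adjusted p under 0.01, 3 paralogues. Single left-out libraries gave 3 to 7 paralogues and 2 to 5 TGF-beta genes. Leaving out 1 library gave 7 to 8 called members in the pooled comparison, 7 to 8 with hairpin #1, 8 with hairpin #3 and 1 between hairpins. Over all genes the pooled count was 2342, against 1317 and 5269 with the fold threshold inside the test and absent. The counts were 2605, 1539 and 6032 with hairpin #1, 2443, 1481 and 5536 with hairpin #3, and 628, 206 and 1857 between hairpins. With the replicate letter as a block (replicate block), the pooled POSTN call was lost (edgeR adjusted p = 0.0513), and no other call of a member changed. Depth limits POSTN and THBS2 most, at 0 to 97 and 9 to 56 counts per library. The cause of these changes was not tested.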
